A study of Mus musculus with 8 samples.

Results

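The genes described here are 10 receptors and activation markers of macrophages, Mrc1, Cd163, Arg1, Chil3, Retnla, Cd68, Adgre1, Csf1r, Cd14 and Msr1, of 12393 named genes on the array. They were chosen by symbol with results of these arrays already known: the higher Mrc1 signal in transgenic prostates was the reason to set it against the other 9. The contrast between groups is therefore given for these genes as a description, with no p-value. They were covered by 15 probe sets, 8 genes by 1 each, Csf1r by 3 and Msr1 by 4, and 1 further probe set that detects Chil3 and Chil4 together was not counted as a member.

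The samples were of ventral prostate of FVB mice aged 20 weeks, 4 transgenic and 4 wild type, with 1 array each. The transgenic mice carried an activated p110 beta allele, p110 beta being among the catalytic subunits of the lipid kinase PI3-kinase, and their samples are labelled as mouse prostatic intraepithelial neoplasia, a precursor lesion of the gland; the wild type samples are labelled normal. The promoter that drives the transgene is not given in the sources used here, and the labels do not say that the 8 arrays are 8 animals, so the only error behind a p-value is the scatter among arrays, which may be technical. Values are log2 RMA values, a background-corrected and normalized scale on which a difference of 1 is a 2-fold change.

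Array medians lay between 5.40 and 5.51, and correlations between arrays between 0.967 and 0.996. In the limma fit over 22626 probe sets 9.84% passed an adjusted p of 0.05 in either direction, and the groups did not overlap for 15.0%. All of these are whole-tissue measurements, in which fewer cells of a type and less RNA per cell cannot be told apart.

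Macrophages are resident phagocytes of nearly all tissues. They depend on the CSF1 receptor for survival, recognise microbes and debris through scavenger and lectin receptors, and change their gene expression with the signals around them. Interleukin 4 and interleukin 13, acting through the transcription factor STAT6, induce in mouse macrophages the program called alternative activation, of which Mrc1, Arg1, Chil3 and Retnla are standard markers. Cd68, Adgre1, Csf1r, Cd14 and Msr1 are used as more general markers of macrophages and monocytes. Outside macrophages Mrc1 is known in lymphatic and sinusoidal endothelium.

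Mrc1, which encodes the mannose receptor CD206, an endocytic lectin for mannose-bearing glycoproteins, stood apart from the other 9 genes. Its log2 values were 8.40, 8.90, 8.89 and 8.65 in transgenic arrays 1 to 4, against 5.68, 7.04, 6.46 and 6.59 in wild type arrays 1 to 4. Every transgenic array lay above every wild type array, with 1.36 between the lowest transgenic and the highest wild type value. The means were 8.71 ± 0.24 in transgenic and 6.44 ± 0.56 in wild type samples (SD, n = 4 each), a difference of 2.27 ± 0.24 (limma SE) or 4.81-fold. By that difference Mrc1 ranked 42 of the 12393 genes. It was the 1 member probe set of 15 past the threshold, and the 1 whose groups did not overlap, where all probe sets gave 9.84% and 15.0%. Leaving out each array in turn gave differences from 2.01 to 2.47.

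**Figure D1:**
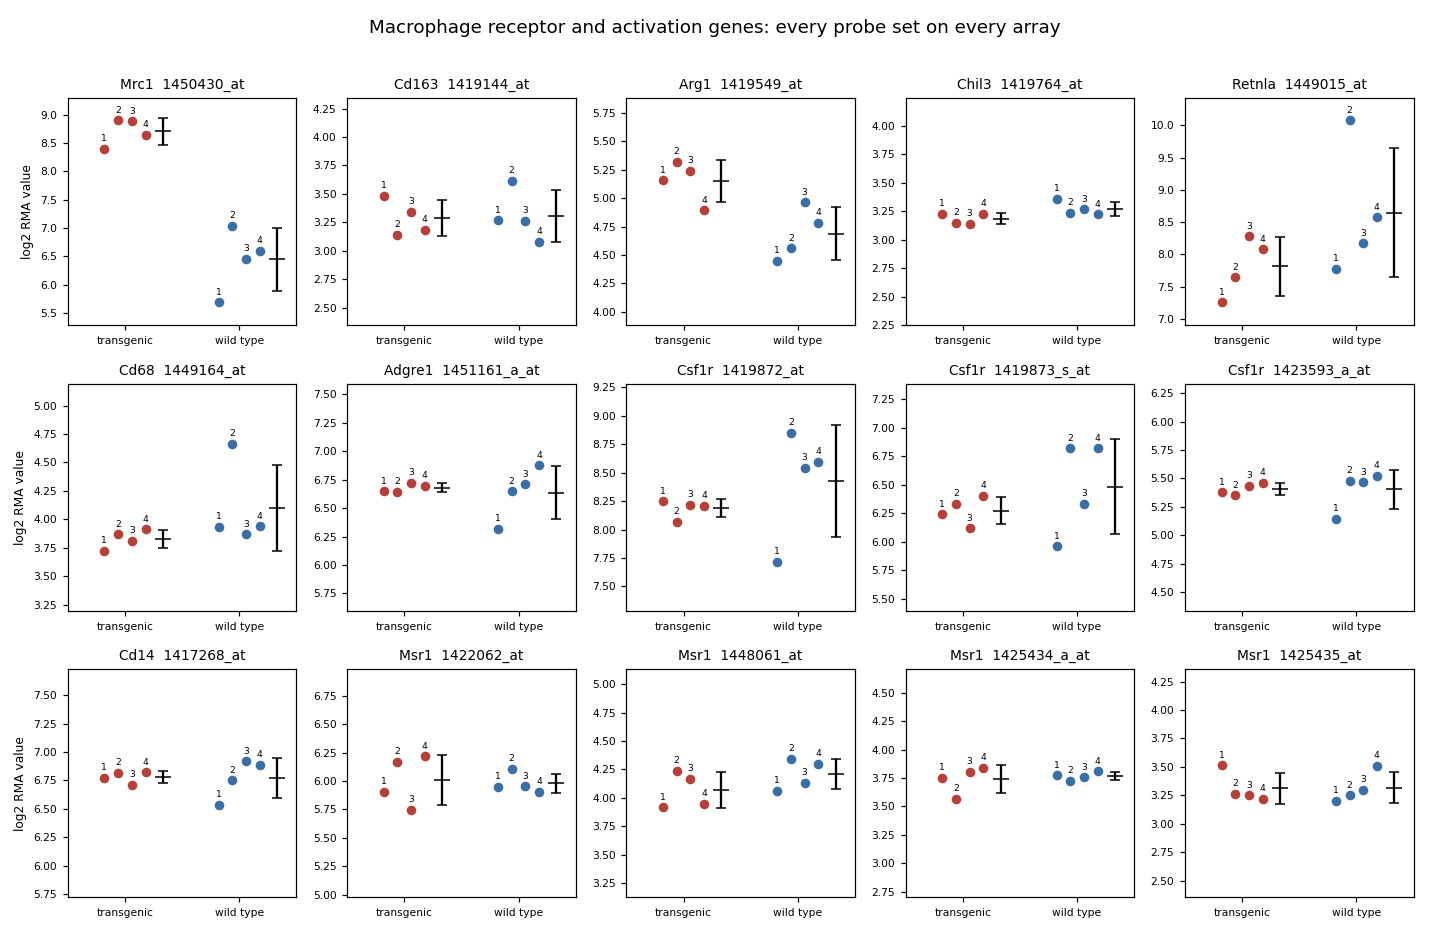
Log2 RMA value of each of the 15 probe sets (panels) on the 8 arrays, transgenic in red and wild type in blue, with replicate numbers above the points and the mean and SD beside them; each panel has its own axis. Mrc1 is separated by group, from 8.40 to 8.90 in transgenic and from 5.68 to 7.04 in wild type arrays, while the groups overlap in the other 14 panels.

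The other 14 probe sets gave differences between -0.83 and 0.46, 12 of them smaller than 0.3 in size. Their median was -0.02, against -0.03 over all probe sets. Of all 15, 6 differences were above 0 and 9 below. No member's level is set against another's, because probe sets differ in how strongly they bind.

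**Figure D2:**
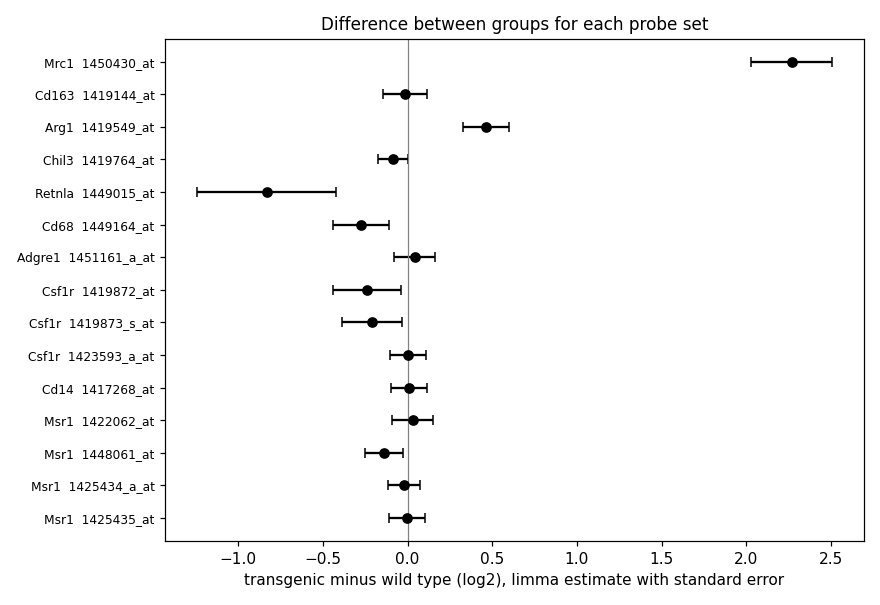
Difference between groups (transgenic minus wild type, log2) for each of the 15 member probe sets, with the limma standard error as bars. Mrc1 lies at 2.27, Arg1 at 0.46 and Retnla at -0.83, and the other 12 lie within 0.3 of 0.

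Cd163 encodes the scavenger receptor for complexes of haemoglobin and haptoglobin and, like Mrc1, marks tissue-resident and alternatively activated macrophages. Its values were 3.48, 3.14, 3.34 and 3.18 in transgenic arrays, against 3.27, 3.61, 3.26 and 3.08 in wild type arrays. The transgenic values all lay inside the wild type range, with a difference of -0.02 ± 0.13 (SE), and all 8 values lay below the median of their array, where a change can go unseen. Msr1, which encodes the class A scavenger receptor for modified lipoproteins, gave differences of 0.03 ± 0.12 at its brightest probe set and between -0.14 and 0.00 at the other 3. The brightest Msr1 probe set read 5.90, 6.17, 5.75 and 6.22 in transgenic arrays, against 5.95, 6.11, 5.95 and 5.91 in wild type arrays. The other 3 Msr1 probe sets were below the median of every array.

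Arg1, Chil3 and Retnla are the classic genes that interleukin 4 induces in mouse macrophages, and none of them was separated by group as Mrc1 was. Arg1 encodes arginase 1, which turns arginine into ornithine and urea. Its values were 5.16, 5.32, 5.24 and 4.89 in transgenic arrays, against 4.45, 4.56, 4.96 and 4.78 in wild type arrays. The lowest transgenic value, 4.89, lay just under the highest wild type value, 4.96. The difference of 0.46 ± 0.14 (SE) was 1.38-fold. Arg1 was under the median on all 8 arrays and did not pass the threshold, although it passed without transgenic array 4 (difference 0.55) or wild type array 3 (0.56), under quantile (0.49) or cyclic loess (0.51) normalization, and when the dimmest 40% of probe sets were left out (0.46).

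Chil3 encodes Ym1, a secreted chitinase-like lectin. It read between 3.14 and 3.23 in transgenic arrays and between 3.22 and 3.36 in wild type arrays, all below the array medians, with a difference of -0.09 ± 0.09 (SE). The probe set shared with Chil4 also lay below the array medians and gave -0.09. No change in Chil3 was detected.

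Retnla encodes the secreted protein RELM alpha, also called FIZZ1. Unlike Arg1 and Chil3 it lay above the median of every array, at 7.26, 7.65, 8.28 and 8.08 in transgenic arrays and 7.77, 10.08, 8.17 and 8.58 in wild type arrays. The groups overlapped, and wild type array 2 was the highest of the 8. The difference was -0.83 ± 0.41 (SE), the opposite sign to Mrc1, and -0.36 without wild type array 2. Retnla had the widest spread of the members in the wild type, with an SD of 1.01 against 0.46 in transgenic samples.

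The promoters of Mrc1 and Retnla are shown because these are the members of the alternative activation program with signal above the array medians. Their differences had opposite signs, but the Retnla groups overlapped and its difference did not pass the threshold. Of the 10 genes, 5 had a promoter in the RefSeq table of build GRCm38.p6, which holds 250 bases before to 50 after each start. Both genes lie on the plus strand, Mrc1 at chr2:14229164-14229463 and Retnla at chr16:48842359-48842658. Capitals mark matches to 2 motifs searched on both strands, the STAT6 motif TTCNNNNGAA and GAGGAA, the core of the motif of the myeloid factor PU.1, which here reads TTCCTC because every PU.1 match shown is on the opposite strand; no matches of the 2 motifs overlap.
Mrc1: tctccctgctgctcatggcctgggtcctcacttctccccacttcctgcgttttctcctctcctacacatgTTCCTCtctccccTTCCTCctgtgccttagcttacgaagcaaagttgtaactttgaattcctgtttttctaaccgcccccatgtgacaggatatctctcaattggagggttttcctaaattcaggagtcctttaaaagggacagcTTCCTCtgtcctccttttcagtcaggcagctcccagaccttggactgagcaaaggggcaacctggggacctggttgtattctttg
Retnla: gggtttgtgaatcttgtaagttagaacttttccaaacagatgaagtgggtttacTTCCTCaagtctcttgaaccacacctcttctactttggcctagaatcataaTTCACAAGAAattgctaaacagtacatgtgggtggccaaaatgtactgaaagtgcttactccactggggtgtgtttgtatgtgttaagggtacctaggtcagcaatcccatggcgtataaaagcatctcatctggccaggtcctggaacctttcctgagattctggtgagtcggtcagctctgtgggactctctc
The Mrc1 window held 3 PU.1 cores and no STAT6 motif, and the Retnla window held 1 of each. The STAT6 motif begins at position -145 relative to the Retnla start site. Among all 32851 promoter windows of this length, 6.95% held the STAT6 motif and 28.28% the PU.1 core. Of the other members with a window, Cd68 held 2 PU.1 cores and no STAT6 motif, and Cd163 and Chil3 held neither.

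None of the general macrophage markers passed the threshold in the fit reported, with differences between -0.27 and 0.04. Csf1r encodes the receptor for the growth factors made from Csf1 and Il34. Its brightest probe set read 8.25, 8.07, 8.22 and 8.21 in transgenic arrays, against 7.72, 8.85, 8.54 and 8.59 in wild type arrays, so that the transgenic values all lay inside the wild type range. The 3 Csf1r probe sets gave -0.24 ± 0.20, -0.21 ± 0.18 and 0.00 ± 0.11 (SE). Without wild type array 1 the brightest gave -0.48 and passed the threshold.

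Adgre1, which encodes an adhesion receptor widely used to stain mouse macrophages, read 6.65, 6.64, 6.72 and 6.69 in transgenic arrays, against 6.32, 6.65, 6.71 and 6.87 in wild type arrays. Cd14, which encodes a co-receptor for bacterial lipopolysaccharide, read 6.77, 6.82, 6.71 and 6.82 in transgenic arrays, against 6.53, 6.75, 6.92 and 6.89 in wild type arrays. For both genes the transgenic values fell within the wild type range, with differences of 0.04 ± 0.12 for Adgre1 and 0.01 ± 0.11 for Cd14 (SE). Cd68, which encodes a lysosomal glycoprotein of phagocytes, read 3.72, 3.87, 3.81 and 3.91 in transgenic arrays, against 3.94, 4.67, 3.87 and 3.94 in wild type arrays. All Cd68 values lay below the array medians, and its difference of -0.27 ± 0.16 (SE) was -0.09 without wild type array 2.

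Set against these 5 general markers on the same array, the Mrc1 difference between groups was as large as on its own. The mean of Cd68, Adgre1, Csf1r, Cd14 and Msr1, each by its brightest probe set, was 6.30 ± 0.06 in transgenic and 6.38 ± 0.21 in wild type samples (SD, n = 4 each). Mrc1 minus that mean was 2.14, 2.59, 2.65 and 2.28 in transgenic arrays, against -0.41, 0.44, 0.06 and 0.15 in wild type arrays. The transgenic arrays were all higher, by 2.35 on average and by 2.20 to 2.48 when each array was left out. Only this difference between groups can be read, since the level of the quantity depends on the probes. Cd68, which lay below the median of every array, has equal weight in the mean of 5 markers, and a change in it can go unseen.

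**Figure D3:**
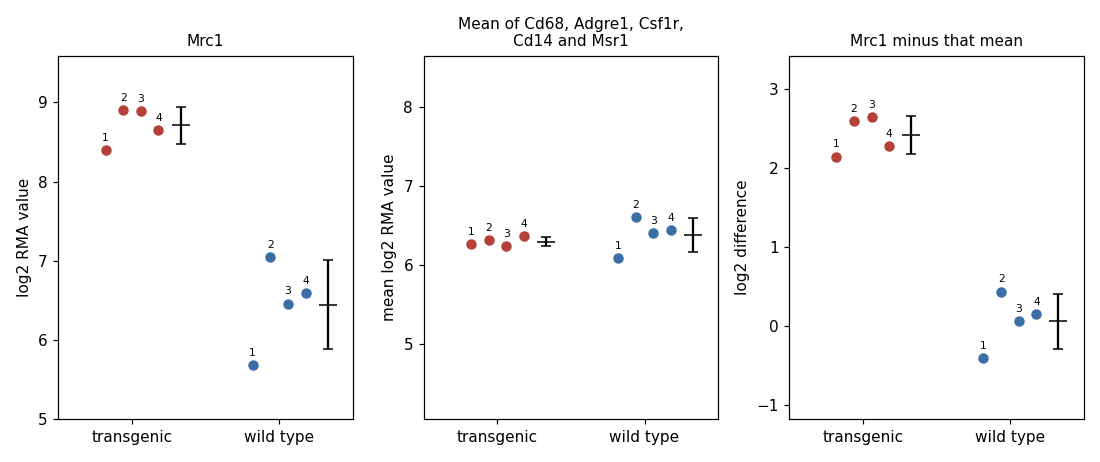
Mrc1, the mean of 5 general macrophage markers and Mrc1 minus that mean (log2, axes of equal span) on the 8 arrays, transgenic in red and wild type in blue, with mean and SD. The marker mean is 6.30 in transgenic and 6.38 in wild type samples, while Mrc1 minus the mean is 2.42 and 0.06.

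The SD was larger among wild type than among transgenic arrays for every probe set of these genes except those of Msr1, where 3 of 4 had the larger SD in transgenic arrays. Of the 15 probe sets, wild type array 1 was the lowest of its group in 10 and wild type array 2 the highest of its group in 8. Mrc1, Retnla and the brightest Csf1r probe set were all lowest in wild type array 1 and highest in wild type array 2. Transgenic array 4 was the highest of its group in 7. The stromal score, the mean of gene-centred log2 values of 22 smooth muscle and fibroblast genes, was between -0.39 and -0.19 in transgenic arrays and between -0.10 and 0.73 in wild type arrays, lowest of the wild type in array 1 and highest in array 2. With that score as a covariate, which is itself separated by group, Mrc1 was at 3.02. Retnla at 0.60, Cd68 at 0.19 and the brightest Csf1r probe set at 0.31 changed sign. So did Cd163 at 0.19, another Csf1r probe set at 0.18 and an Msr1 probe set below the array medians at 0.02.

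Other genes of macrophages and of their activation were counted from lists, with 1 probe set per gene, beside 5.99% of all genes higher and 4.98% lower in transgenic samples in limma and a median over all genes of -0.04. Of 22 further macrophage and myeloid markers 2 rose and 0 fell; the list median was -0.11. The genes that rose were Ctss, encoding the lysosomal protease cathepsin S, and Lgals3, encoding galectin 3. Ctss averaged 7.57 ± 0.29 in transgenic and 6.67 ± 0.34 in wild type samples (SD, n = 4 each; adjusted p = 0.00896). Lgals3 averaged 7.75 ± 0.26 in transgenic and 6.76 ± 0.55 in wild type samples (SD, n = 4 each; adjusted p = 0.0217), a call lost without transgenic array 2 or 3 or wild type array 3 or 4 (adjusted p up to 0.0734). Galectin 3 is also made by epithelium. The complement genes C1qa, C1qb and C1qc, made largely by macrophages in tissues, were at -0.35, -0.21 and -0.34. Lyz2, the lysozyme gene of myeloid cells, was at -0.34, and none of these passed the threshold. C1qa, Lyz2 and C1qc had the lowest differences of the list, while Mpeg1, Cx3cr1 and Ms4a7 were at 0.00, 0.03 and 0.03. C1qa, C1qb, C1qc and Lyz2 were each highest in wild type array 2. There C1qa read 7.64, against 6.04 to 6.75 in the other wild type arrays. The other C1qb probe sets were at -0.25 and -0.01. The average level of this list was between 5.38 and 5.53 in transgenic arrays and between 5.17 and 5.79 in wild type arrays.

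The 3 relatives of Mrc1 in the mannose receptor family did not pass and had differences below 0. Mrc2, encoding the collagen receptor Endo180, was at -0.29, Pla2r1, encoding the phospholipase A2 receptor, at -0.37 and Ly75, encoding an endocytic lectin of dendritic cells, at -0.02, all below the array medians. At an unadjusted p under 0.05 limma had 2 of the 3, Mrc2 and Pla2r1, whose second probe sets were at -0.03 and -0.06 without passing. None of 16 other scavenger and C-type lectin receptors passed, 1 had an unadjusted p under 0.05, and 14 were under the median on all 8 arrays. Their median was -0.04. Scarb2, encoding a lysosomal membrane protein, was at -0.14, but its other probe set, at 0.42, passed. The largest difference among the genes' brightest probe sets was that of the HDL receptor gene Scarb1, at -0.42 (adjusted p = 0.0587).

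Genes of interleukin 4 and 13 signalling showed 1 call in 12. Jak1, encoding a kinase shared by many cytokine receptors, averaged 9.16 ± 0.09 in transgenic and 8.62 ± 0.20 in wild type samples (SD, n = 4 each; adjusted p = 0.0125), and its other probe sets, at 0.16 to 0.55, did not pass. The receptor gene Il4ra was at -0.19 and Stat6 at -0.21, neither past the threshold, and the ligand genes Il4 and Il13 lay below every array median. The list median was 0.02.

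Of 18 other genes of alternative activation 1 rose and 1 fell while 16 stayed under the threshold; the list median was -0.01. Klf4, a zinc finger factor that takes part in alternative activation and is also a factor of epithelial differentiation, read 8.90, 9.26, 8.96 and 9.16 in transgenic arrays, against 5.91, 6.77, 6.37 and 6.28 in wild type arrays. Its groups were separated by more than those of Mrc1, with a rise of 2.74 ± 0.17 (SE; adjusted p = 1.94e-06). A second Klf4 probe set, at 3.15, also passed. Arg2, the mitochondrial arginase gene, fell by 0.42 (adjusted p = 0.0391), opposite in sign to Arg1; that call was lost without any one of 6 arrays, all but transgenic array 1 and wild type array 3, and with the stromal score, where the difference was larger at -0.54 (adjusted p up to 0.157). Tgm2, encoding transglutaminase 2, was at -0.45 without passing, while 2 of its 5 other probe sets, which lay between -0.71 and -0.20, passed. Retnlb and Retn, relatives of Retnla, were at 0.20 and 0.08, and Chil4 and Chil1, relatives of Chil3, at 0.19 and 0.07, none past the threshold.

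No gene of classical activation passed among 12 measured, and 0 had an unadjusted p under 0.05 in limma. Tnf was at 0.25 (adjusted p = 0.297) and Il1b at -0.24. The inducible nitric oxide synthase gene Nos2 was at 0.15, and like 8 others of the list it lay below the median of every array. The list median was -0.08.

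Of 8 ligands and receptors of the colony stimulating factors 1 rose, Csf2ra, encoding the GM-CSF receptor alpha chain, at 6.13 ± 0.20 in transgenic and 5.60 ± 0.15 in wild type samples (SD, n = 4 each; adjusted p = 0.0183). The second Csf2ra probe set was at 0.07 without passing, and the call was lost without transgenic array 2, 3 or 4 or wild type array 2 and with the stromal score, where the difference was larger at 0.60 (adjusted p up to 0.156). Csf1 and Il34, the ligands of Csf1r, were at -0.21 and 0.07, neither past the threshold. Among 7 partners of CD14 in lipopolysaccharide sensing, Irak1, encoding a kinase downstream of Toll-like receptors, fell by 0.66 (adjusted p = 0.00119), and its 3 other probe sets lay between -0.43 and -0.14, 1 of them past the threshold. Ly96 and Tlr4, encoding the receptor complex to which CD14 passes its ligand, were at 0.46 and 0.33 and did not pass. A second Tlr4 probe set was at 0.62, also without passing.

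**Figure D4:**
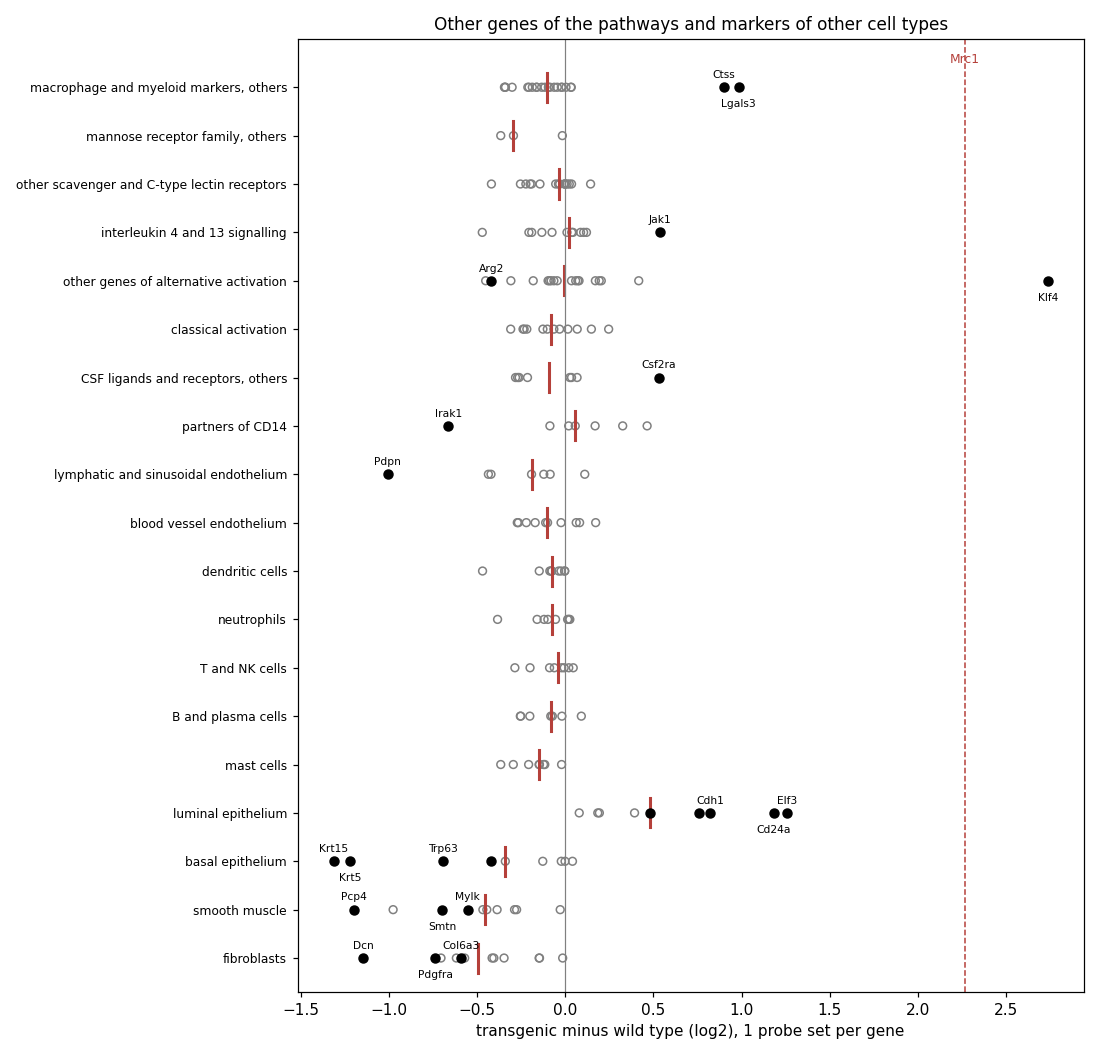
Difference between groups (transgenic minus wild type, log2) of each gene in 19 lists; filled points passed the limma threshold, open points did not, red bars are list medians and the dashed line is Mrc1 at 2.27. The lists of macrophage, other immune and endothelial cell types have medians from -0.19 to -0.04, the lists of receptor families, signalling and activation from -0.29 to 0.06, luminal epithelium lies higher at 0.48, and basal epithelium, smooth muscle and fibroblasts lie lower, at -0.34 to -0.49.

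Lymphatic and sinusoidal endothelium, in which Mrc1 is also known, had 7 measured markers, of which 0 rose and 1 fell. The list median was -0.19. Pdpn, encoding podoplanin, which basal epithelium and stroma also express, fell by 1.01 (adjusted p = 0.00365) and did not pass with the stromal score (-0.48, adjusted p = 0.227). The defining markers Lyve1 and Prox1 were at -0.42 and -0.09 without passing, both below the median of every array. A second Lyve1 probe set was at -0.60 and did not pass either. At an unadjusted p under 0.05 limma had 3 of the 7, Pdpn, Lyve1 and Reln, all with differences below 0. The average level of this list was between 4.64 and 4.88 in transgenic arrays and between 4.73 and 5.25 in wild type arrays. Of 10 markers of blood vessel endothelium none passed and 0 had an unadjusted p under 0.05. For dendritic cells 0 of 10 passed and 1 had such a p, with Cd74 at -0.47 (adjusted p = 0.0541). In limma 0 of 8 neutrophil, 0 of 8 T and NK cell, 0 of 7 B and plasma cell and 0 of 8 mast cell markers passed, with 0, 1, 0 and 1 at an unadjusted p under 0.05. The genes with the smallest p in these lists and in blood vessel endothelium were S100a8 at -0.38, Gzmb at -0.29, Tnfrsf17 at -0.20, Cpa3 at -0.30 and Esam at -0.27.

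Markers of the epithelium and stroma moved between the same arrays as Mrc1. Among the luminal genes, 5 of 9 rose and 0 fell, Elf3 by 1.26 and Cd24a by 1.18 (adjusted p = 1.99e-05 and 6.23e-05), and the average level of the list was between 10.58 and 10.63 in transgenic arrays and between 9.92 and 10.08 in wild type arrays. Among the basal genes, 4 of 9 fell and 0 rose, the keratin gene Krt5 by 1.22 (adjusted p = 0.000241). Of 10 smooth muscle markers 3 fell and 0 rose, and of 12 fibroblast markers 3 fell and 0 rose, Dcn, encoding decorin, by 1.15 (adjusted p = 0.000224). The other genes with the largest called changes were Cdh1, encoding E-cadherin, which rose by 0.82, the basal genes Krt15 and Trp63, which fell by 1.32 and 0.70, the smooth muscle genes Pcp4, Smtn and Mylk, which fell by 1.20, 0.70 and 0.55, and the fibroblast genes Pdgfra and Col6a3, which fell by 0.74 and 0.59. With the stromal score these 8 did not pass (adjusted p between 0.0665 and 0.900), although 6 kept differences of similar size, Cdh1 at 0.97, Krt15 at -1.20, Trp63 at -0.64, Pcp4 at -1.15, Smtn at -0.67 and Col6a3 at -0.69, while Mylk was at -0.25 and Pdgfra at -0.12. Pcp4, Smtn, Mylk, Pdgfra and Col6a3 are themselves part of that score, so for these genes the loss of the call is partly built in. The called Trp63 probe set lay below the median on all 8 arrays, and its other probe sets, at -0.06 and 0.01, did not pass. Among fits without 1 array, the call of Mylk was lost in 5 of 8 fits and Pdgfra in 6 of 8. Whether the luminal and basal changes have any part in the Mrc1 difference was not tested.

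The 6 genes whose profile over the 8 arrays lay nearest to that of Mrc1 were Bace2, Tnfrsf19, Aspa, Klf4, Creb3l4 and Cd55, among 12124 genes compared. Likeness was the root mean square difference of the log2 values after each gene's mean was subtracted, and it was 0.24 for Bace2, 0.28 for Tnfrsf19, 0.29 for Aspa, 0.31 for Klf4, 0.31 for Creb3l4 and 0.32 for Cd55. All 6 were higher in transgenic samples, as the measure requires when the profile is dominated by the difference between groups. Bace2, encoding a membrane protease of the BACE family, read 9.61, 9.85, 9.78 and 10.01 in transgenic arrays, against 7.28, 8.06, 7.67 and 7.48 in wild type arrays. Like Mrc1 it was lowest in wild type array 1 and highest among the wild type in array 2. So were Aspa, encoding aspartoacylase, Klf4 and Creb3l4. Creb3l4 spanned only 4.87 to 5.05 in wild type arrays, against 5.68 to 7.04 for Mrc1. Its wild type values and those of Cd55 lay below the array medians. Among the members the nearest to Mrc1 was Arg1, at rank 571 with 0.97, and the farthest was Retnla, at rank 11959 with 1.60.

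**Figure D5:**
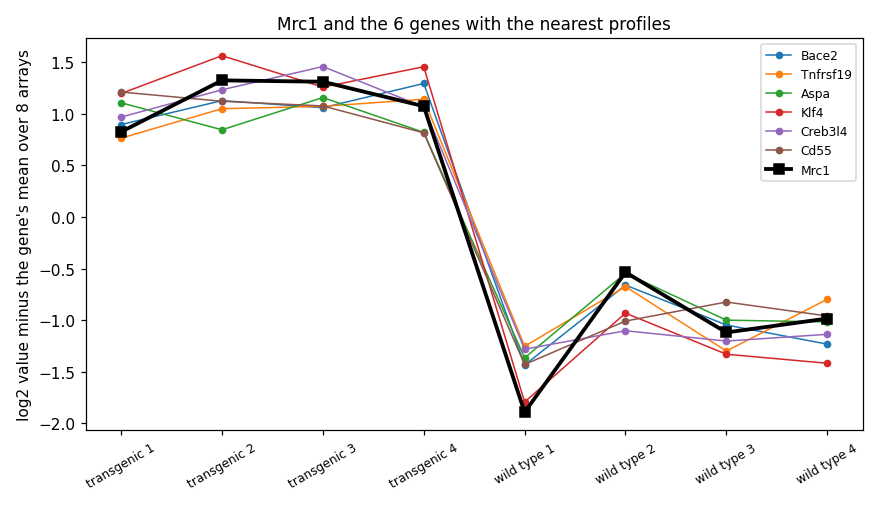
Log2 value minus the gene's own mean over the 8 arrays, for Mrc1 (black squares) and the 6 genes with the nearest profiles (coloured lines), transgenic arrays on the left. All 7 genes are above their mean in every transgenic array and below it in every wild type array, and Mrc1 has its lowest value in wild type array 1.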

How the data were processed

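Total RNA of ventral prostate was labelled with biotin and hybridised to 8 Affymetrix arrays, per the labels' protocols. The authors deposited log2 values from RMA, which the submitters' processing notes name without a version; a change shared by all transcripts would be removed by its normalization. Scanner files were not analysed here, and the number of arrays limits the precision.

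From these values 64 control probe sets were left out and a 2-group model was fitted to the other 22626 (R 4.3.3, limma 3.58.1, lmFit then eBayes). P-values were adjusted by Benjamini-Hochberg across all 22626, and the threshold was 0.05. Gene names came from GEO's platform annotation, with symbols updated by gene identifier in RefSeq (GRCm38.p6): 20380 had 1 symbol, 691 several and 1555 none. In gene lists a gene is represented by its 1-symbol probe set with the highest mean. Of 209 listed genes 194 were measured.

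Members, lists, motifs and alternatives were chosen with earlier results of these data known. The text names all members, up to 3 called genes per list by size (or the 1 with the smallest p), the 6 genes nearest to Mrc1, and some list members picked after their values were seen. The alternatives tried were cyclic loess and quantile normalization, a trended robust prior, array weights, leaving out the dimmest 40%, replicate number as a block, a stromal covariate, the mean of a gene's probe sets and leaving out each array. The fit was tested on simulated normal values with the same SD in both groups. Most member probe sets had a larger SD in wild type arrays, a setting the simulation did not cover.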

Additional observations from a re-analysis of the deposited data

Results flagged for a closer look

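In 5 of 98 groups of 4 arrays checked, 1 array stood farther from the others than Dixon's critical value for 4 samples allows, and chance gives about 1 in 20. Cd68 was at 4.67 in wild type array 2, against 3.87 to 3.94 in the other wild type arrays. The weakest Csf1r probe set was at 5.15 in wild type array 1, against 5.47 to 5.52. An Msr1 probe set below the array medians was at 3.51 in transgenic array 1, against 3.22 to 3.26. Pla2r1, of the mannose receptor family, was at 4.89 in wild type array 2, against 5.16 to 5.21. The luminal marker Elf3 was at 8.17 in transgenic array 3, against 7.98 to 8.01.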

How the results depend on the processing

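The Mrc1 difference lay between 2.01 and 3.02 under the 15 alternatives run on it, the highest with the stromal score as a covariate; leaving out each array gave 2.01 to 2.47. Mrc1 minus the mean of the 5 general markers lay between 2.20 and 2.48. The number of member probe sets past the threshold, 1 in the fit reported, was 2 under quantile normalization, 2 under cyclic loess normalization and 2 with the dimmest 40% left out, in each case by the addition of Arg1, and between 1 and 2 when each array was left out. Of the 204 values of the other 14 probe sets under alternatives, 196 moved by less than 1 SD between replicates, and the other 8 all came with the stromal score, where 8 of the 14 moved by more. List genes that rose numbered 10, and between 8 and 11 under alternatives. List genes that fell numbered 13, and were 28 with array weights and 3 with the stromal score. That score contains the smooth muscle and fibroblast genes counted. Between 9 and 26 fell when each array was left out, the 26 without wild type array 1. The cause of these shifts was not tested. Deviations of same-numbered arrays correlated between -0.31 and 0.33. Only transgenic array 4 had its best match in the wild type array of its own number. These values do not settle whether same-numbered arrays were processed together. With replicate number as a block Mrc1 stayed at 2.27, 1 member passed, and 10 list genes rose and 12 fell. Signal over background limits Cd163, Chil3, Cd68 and Arg1, which lay below the median of every array.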
